A study of Mus musculus with 2 samples.

Results

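The Nr4a family of orphan nuclear receptors has 3 members, Nr4a1, Nr4a2 and Nr4a3, and all 3 had accessible promoters in both DNase-seq libraries of mouse hippocampus. Of all protein-coding genes, 63.4% had a promoter peak in replicate 1, 60.4% in replicate 2 and 59.0% in both. They are 3 of the 21853 protein-coding genes of the annotation and were taken by name. For each gene, every deposited peak and footprint in the gene body and 50 kb on each side was examined. DNase I cuts DNA that is not packed into nucleosomes, so a peak in the sequenced cuts marks accessible chromatin, and a footprint is a short protected stretch inside it. The samples were 2 libraries of 1 group, replicate 1 and replicate 2, made from tissue of female B6CASTF1/J mice (first-generation offspring of C57BL/6J and CAST/EiJ) aged 2 months. The tissue is given as a layer of the hippocampus in one label and as hippocampus in another, and no treatment or altered allele is given. The labels give both libraries 1 donor record but a biosample record each. Whether different animals were used is not stated, and the spread between the libraries may therefore be technical. There was no second condition, and no p-value was computed.

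Nr4a1 (Nur77), Nr4a2 (Nurr1) and Nr4a3 (Nor-1) are transcription factors whose ligand pocket is filled by their own side chains, so that their activity follows their amount. They are immediate early genes: in neurons, calcium and cyclic AMP signals raise their transcription within minutes through CREB bound at cyclic AMP response elements (CREs), and in the hippocampus the family takes part in the consolidation of memory. The receptors bind the NBRE sequence as monomers, and Nr4a1 and Nr4a2, but not Nr4a3, also pair with retinoid X receptors.

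The promoter sequences are shown first, since the CRE core TGACG recurred in them. It was not the only motif to do so. The GC box, GGGCGG, also recurred and is not marked. It was found at both Nr4a1 start sites shown and at both Nr4a2 start sites shown, but not at the Nr4a3 start site shown. Each sequence is the 250 bases upstream of an annotated transcription start site (TSS), written 5′ to 3′ along the gene from the RefSeq GRCm38.p6 assembly, and capitals mark TGACG or its reverse complement CGTCA. The main start sites come first, on the plus strand for Nr4a1 and Nr4a3 and on the minus strand for Nr4a2.
Nr4a1, chr15:101266596-101266845, plus strand: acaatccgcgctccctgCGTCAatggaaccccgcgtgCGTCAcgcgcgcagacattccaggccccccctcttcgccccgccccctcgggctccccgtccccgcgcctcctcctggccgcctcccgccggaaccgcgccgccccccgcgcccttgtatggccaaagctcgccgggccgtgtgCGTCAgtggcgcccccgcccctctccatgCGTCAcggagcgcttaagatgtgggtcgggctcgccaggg
Nr4a2, chr2:57115039-57115288, minus strand: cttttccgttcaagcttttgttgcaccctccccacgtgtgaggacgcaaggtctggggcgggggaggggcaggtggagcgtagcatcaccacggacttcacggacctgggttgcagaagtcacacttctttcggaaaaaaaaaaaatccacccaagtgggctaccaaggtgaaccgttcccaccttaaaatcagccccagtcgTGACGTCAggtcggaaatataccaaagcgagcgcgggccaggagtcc
Nr4a3, chr4:48044903-48045152, plus strand: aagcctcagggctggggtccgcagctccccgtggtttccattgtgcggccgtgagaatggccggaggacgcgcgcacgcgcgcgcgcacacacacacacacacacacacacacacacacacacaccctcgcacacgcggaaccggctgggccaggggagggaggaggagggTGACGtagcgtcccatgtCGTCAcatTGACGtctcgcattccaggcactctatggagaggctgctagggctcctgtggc
The upstream start sites of Nr4a1 and Nr4a2 had weaker peaks and are shown because they hold the same core.
Nr4a1 upstream start, chr15:101254019-101254268, plus strand: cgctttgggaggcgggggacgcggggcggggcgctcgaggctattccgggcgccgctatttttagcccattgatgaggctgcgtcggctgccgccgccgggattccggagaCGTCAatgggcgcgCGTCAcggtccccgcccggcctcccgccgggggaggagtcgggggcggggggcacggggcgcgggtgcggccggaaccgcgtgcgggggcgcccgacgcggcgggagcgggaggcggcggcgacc
Nr4a2 upstream start, chr2:57124004-57124253, minus strand: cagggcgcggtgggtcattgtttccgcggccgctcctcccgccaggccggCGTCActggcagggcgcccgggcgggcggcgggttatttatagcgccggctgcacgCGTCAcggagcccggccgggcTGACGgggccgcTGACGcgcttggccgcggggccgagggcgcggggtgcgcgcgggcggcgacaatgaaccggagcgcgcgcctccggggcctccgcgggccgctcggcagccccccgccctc

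The core TGACG was present in 5 of the 7 windows at coding start sites of the members, and these 5 are the ones shown; the windows of the downstream Nr4a2 start and the internal Nr4a3 start held none. The Nr4a1 main promoter held it 4 times, at bases -233, -213, -69 and -40 from the TSS, each time on the minus strand of the gene. The Nr4a3 main promoter held it 3 times, at -79, -61 and -53. The Nr4a2 main promoter held the full palindromic CRE, TGACGTCA, at -47 to -40, which reads as TGACG on both strands. Among 54322 windows of the same length at all protein-coding start sites, 20.02% held TGACG at least once, 4.74% at least 2 times, 0.90% at least 3 times and 0.184% at least 4 times, and 1.82% held the full CRE. These windows were not matched for base composition. TGACG contains a CpG, and the main start sites of the members were richer in CpG than the median coding start site. The upstream Nr4a2 window held TGACG 4 times, and the upstream Nr4a1 window 2 times. Both upstream windows also held a match to the MEF2 consensus, the site of the Mef2 factors that couple neuronal activity to transcription, which 2.5% of all windows held. None of the 3 main windows held a match to MEF2, to the SRE bound by Srf, to NBRE (AAAGGTCA) or to AP-1 (TGANTCA). A match is a description of letters and does not show that a factor was bound.

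Nr4a1 (ENSMUSG00000023034.7, chr15:101254269-101274795, plus strand, 20.5 kb) had its main TSS at base 101266846. The value of a peak is the authors' own signal. The sources used here do not give its scale. Within a library the values below 1, the only ones tested, were whole multiples of a step. All values were therefore taken as scaled to the library, and each comparison between the replicates depends on that. The peak at this TSS, chr15:101266621-101266920, had a value of 4.10 in replicate 1 and 2.60 in replicate 2 (mean 3.35 ± 1.06, SD, n = 2). It was higher in replicate 1. Of the genes with a promoter peak, 61.9% had a lower promoter value in replicate 1 and 46.6% in replicate 2, so the promoter stood near the middle of all accessible promoters. 

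Nr4a2 (ENSMUSG00000026826.13, chr2:57106830-57124003, minus strand, 17.2 kb) had its main TSS at base 57115038. The peak at this TSS, chr2:57114881-57115120, had a value of 2.16 in replicate 1 and 2.67 in replicate 2 (mean 2.42 ± 0.364, SD, n = 2). It was higher in replicate 2, opposite to the other members. Lower promoter values were found for 37.0% of genes in replicate 1 and 47.9% in replicate 2.

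Nr4a3 (ENSMUSG00000028341.9, chr4:48045153-48086447, plus strand, 41.3 kb) had its main TSS at the first base of the gene. The peak at this TSS, chr4:48044981-48045220, had a value of 4.14 in replicate 1 and 2.40 in replicate 2 (mean 3.27 ± 1.23, SD, n = 2). It was higher in replicate 1, as at Nr4a1. Lower promoter values were found for 62.3% of genes in replicate 1 and 43.0% in replicate 2.

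The order of the 3 promoters was not the same in the libraries: Nr4a2 was lowest in replicate 1 and highest in replicate 2. The ranges of the members overlapped, so no order of their promoter accessibility could be given. The ratio of replicate 1 to replicate 2 was 1.58 for Nr4a1, 0.807 for Nr4a2 and 1.72 for Nr4a3. Over all promoters with a peak in both libraries the median ratio was 1.23, with the 10th and 90th percentiles at 0.795 and 1.79, so all 3 ratios lay within that range. Hippocampal tissue was profiled in bulk, and fewer cells with an open site cannot be told apart from less cutting per cell. By the distance between log2 promoter values over the 2 libraries, the genes nearest to Nr4a1 were Pomgnt2, Hs3st1 and Mtpap, those nearest to Nr4a2 were Skp1a, G2e3 and Ypel1, and those nearest to Nr4a3 were Hnrnpd, 4930524J08Rik and Hist1h3h.

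Other immediate early transcription factors gave a reference for these levels. All 10 listed Fos, Jun and Egr family genes had promoter peaks in each library. Jun, an AP-1 subunit, had the highest values of the 10, at 14.7 in replicate 1 and 7.25 in replicate 2. Egr1, a zinc finger factor induced by synaptic activity, had values of 6.68 and 5.53. Fos, the AP-1 partner of Jun, had the lowest values of the 10, at 2.13 and 2.20. Of the 10, 8 had a higher promoter value than Nr4a1 in replicate 1 and 8 in replicate 2. The corresponding counts were 9 and 8 for Nr4a2, and 8 and 9 for Nr4a3, so the Nr4a promoters lay towards the low end of this list, with Fos and Egr2 (3.56 and 2.48) as their neighbours.

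**Figure D1:**
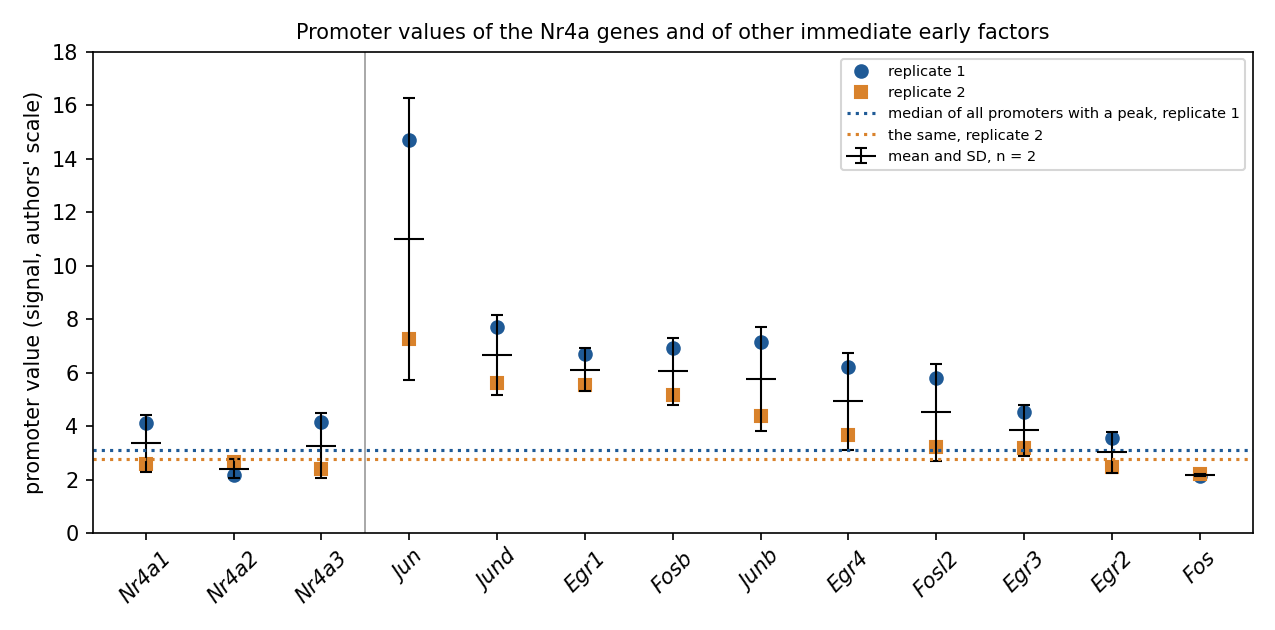
Promoter value (highest peak value within 1 kb of a coding TSS, authors' signal scale) of the 3 Nr4a genes and of 10 other immediate early factors, with circles for replicate 1, squares for replicate 2, bars for the mean and SD of n = 2, and dotted lines for the median of all promoters with a peak (3.10 in replicate 1 and 2.78 in replicate 2). The Nr4a genes sit between 2.16 and 4.14, and their means lie below those of all the others but Egr2 and Fos.

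Alternative start sites differed in the peaks found within 1 kb of them. At Nr4a1, the upstream TSS at 101254269 had a peak in replicate 1 only, with a value of 1.32, and none in replicate 2. At Nr4a2, the upstream TSS at 57124003 had a peak in both libraries, with values of 0.787 and 0.960, plus a second peak, 8.75 kb upstream of the main TSS, of 0.557 in replicate 2 only. The downstream coding TSS of Nr4a2 at 57113072 had no peak within 1 kb. At Nr4a3, the internal coding TSS at 48049114 had a peak within 1 kb in both libraries, with values of 1.12 and 0.918. These peaks lay upstream of that TSS and did not reach it (chr4:48047985-48048164 in replicate 1 and chr4:48048021-48048267 in replicate 2). Neither was in the shorter peak list of its library. The main TSS of each gene was chosen as the coding TSS nearest its strongest promoter peak by the mean of both libraries. A higher mean at the main TSS than at the other start sites therefore follows from that choice. It was also the highest in each library taken alone. The main start sites lay in sequence rich in CpG: over 1 kb, the observed over expected CpG ratio was 0.747 for Nr4a1, 0.868 for Nr4a2 and 0.816 for Nr4a3, against a median of 0.523 at 54327 coding start sites.

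The windows of the 3 genes held 48 accessible regions, counting overlapping peaks of the libraries as 1 region. Of these, 24 were found in both libraries, 20 in replicate 1 only and 4 in replicate 2 only. Of the peaks of replicate 1 in the windows, 25 of 45 (55.6%) were shared, against 46.6% of all its peaks, and of those of replicate 2, 25 of 29 (86.2%) were shared, against 83.4%. The shares were near those of all peaks. Replicate 1 had the longer list of the libraries, 129779 peaks against 71895. The regions found only in replicate 1 had values of 0.451 to 1.74 (median 1.10), and the shared ones had values of 0.265 to 7.57 there (median 2.06), so these ranges overlapped. Of the shared regions, 7 lay within 1 kb of a TSS of the member, 8 within 1 kb of a TSS of another gene, and 9 were distal to every TSS.

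**Figure D2:**
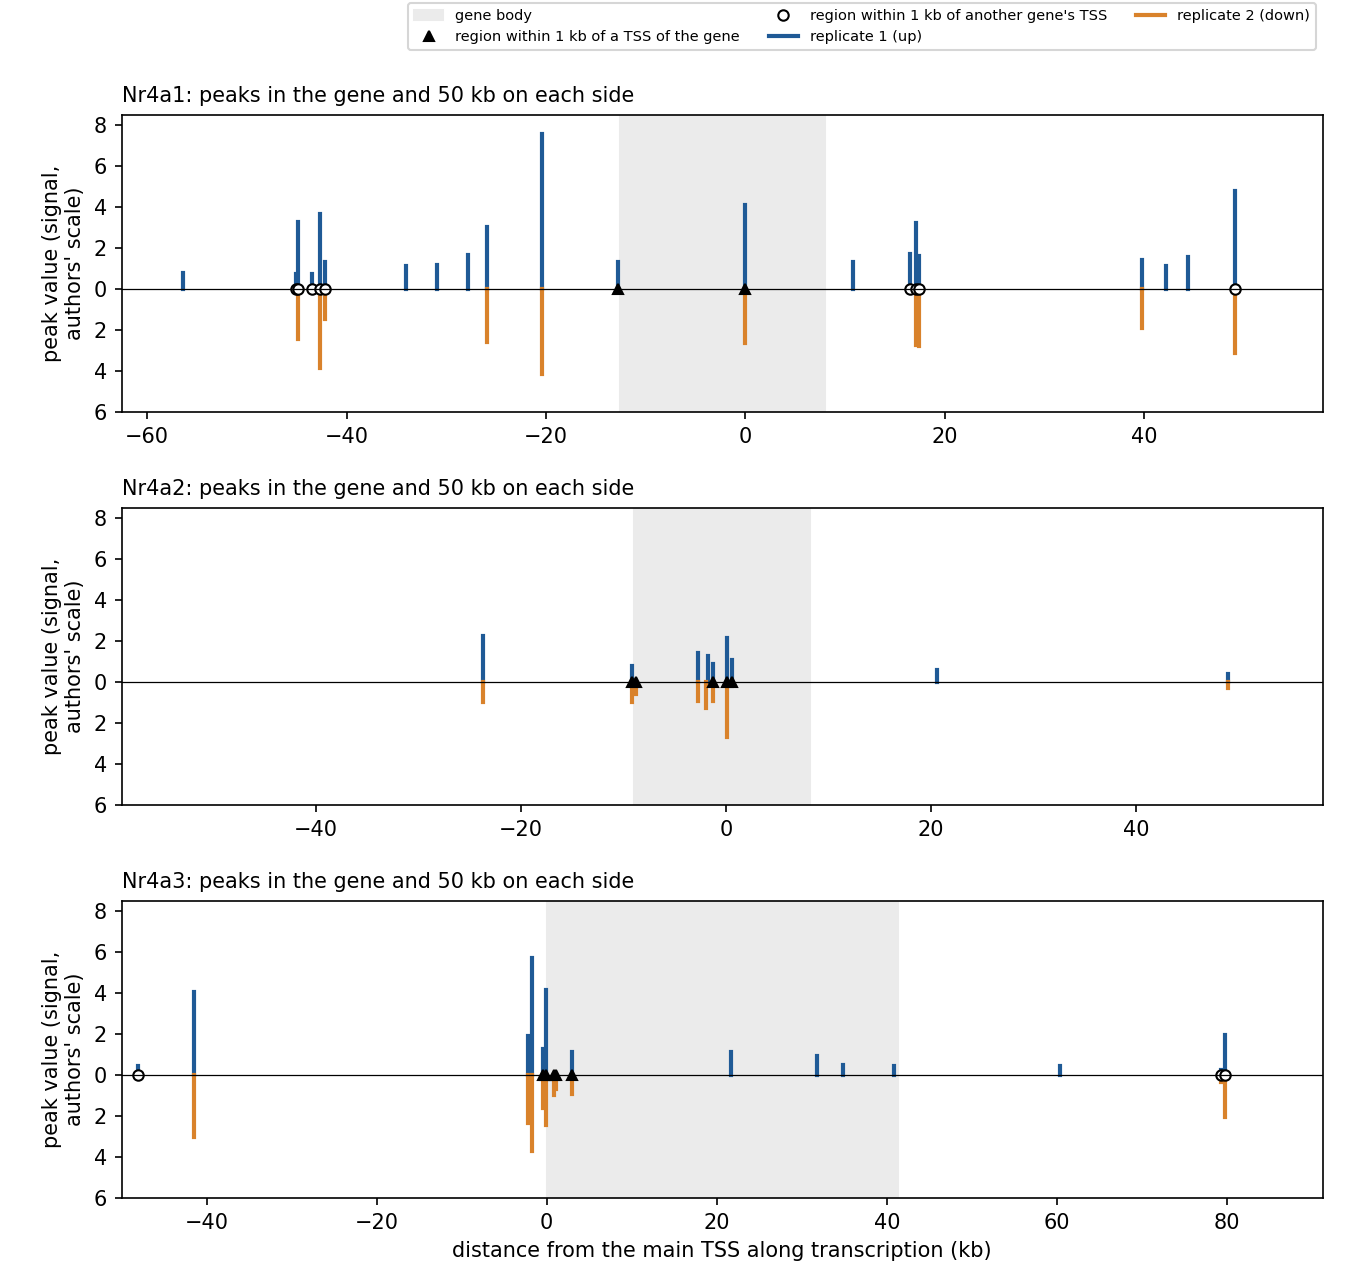
Peaks in each gene and 50 kb on each side, placed by distance in kb from the main TSS along transcription, with the peak value (authors' signal scale) of replicate 1 upwards and of replicate 2 downwards. Shading marks the gene body, triangles regions within 1 kb of a TSS of the gene and open circles regions within 1 kb of another gene's TSS; Nr4a1 has 10 shared regions spread over its window, and Nr4a2 and Nr4a3 have 6 of 11 and 7 of 16 of all their regions in a cluster at the main TSS.

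Nr4a1 had 21 regions, of which 10 were shared and 11 were found in replicate 1 only. The 10 shared regions were more than those of 82.9% of protein-coding genes in windows made the same way, whose median was 5. Only 1 of the 10 was the promoter of Nr4a1, and 6 lay within 1 kb of a TSS of a neighbour, namely 2 at Grasp, which encodes a scaffold protein of neurons, 2 at Atg101, an autophagy gene, and 1 each at AU021063 and Gm49499. The strongest region of the window was distal, at chr15:101246281-101246540, 20.4 kb upstream of the main TSS and in no annotated exon or intron. Its value was 7.57 in replicate 1 and 4.15 in replicate 2 (mean 5.86 ± 2.42, SD, n = 2), above the Nr4a1 promoter in both libraries. These coordinates are those of replicate 1, and the peak of replicate 2 inside them was 80 bases wide (chr15:101246401-101246480). Of all peaks, 98.6% in replicate 1 and 95.3% in replicate 2 had lower values. The other shared distal regions were at chr15:101240761-101241160, 25.9 kb upstream, with values of 3.04 and 2.58, and at chr15:101306561-101306780, 39.8 kb downstream, with values of 1.43 and 1.90. The strongest distal peak found in replicate 1 only was 27.8 kb upstream, with a value of 1.69.

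Nr4a2 had 11 regions, of which 6 were shared, 3 were found in replicate 1 only and 2 in replicate 2 only. Of protein-coding genes, 52.3% had fewer shared regions. Here 6 of the 11 regions lay in a cluster of 3.48 kb, chr2:57114401-57117880, from just inside the gene's main transcript to the region upstream of its TSS, which is intronic to the longer transcript. Within the cluster, the region 1.29 kb upstream of the TSS had values of 0.875 and 0.918, and the region 2.73 kb upstream had values of 1.42 and 0.929. Both were weaker than the promoter in both libraries. On the other side, 0.527 kb downstream of the TSS, replicate 1 listed a peak with a value of 1.08, and replicate 2 listed none but had an FDR under 0.05 at all 220 of its bases. Between the upstream regions, replicate 1 listed a peak of 60 bases, 1.79 kb upstream, with a value of 1.26, and replicate 2 listed a separate one, 1.96 kb upstream, with a value of 1.23. These were the strongest distal peaks of 1 library only, and each also held bases under an FDR of 0.05 in the other library. Replicate 2 had all 60 bases of the first, and replicate 1 had 187 of the 240 bases of the second. Why the libraries listed different peaks here was not tested. The strongest shared distal region was at chr2:57138681-57138900, 23.8 kb upstream in an intron of BB557941, with a value of 2.27 in replicate 1 and 0.949 in replicate 2. Its ratio of 2.39 was the highest of the 24 shared regions. The last shared region, 48.9 kb downstream, was weak, with values of 0.398 and 0.299.

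Nr4a3 had 16 regions, of which 8 were shared, 6 were found in replicate 1 only and 2 in replicate 2 only. Of protein-coding genes, 70.0% had fewer shared regions. Here 7 regions lay in a cluster of 5.60 kb around the TSS, chr4:48042667-48048267. The strongest was not the promoter but chr4:48043341-48043620, 1.67 kb upstream, with a value of 5.72 in replicate 1 and 3.66 in replicate 2 (mean 4.69 ± 1.46, SD, n = 2). It was above the Nr4a3 promoter in both libraries. These coordinates are those of replicate 2, and the peak of replicate 1 inside them was 160 bases wide (chr4:48043441-48043600). Beside it, the region 2.21 kb upstream had values of 1.91 and 2.33, and the region 0.412 kb upstream had values of 1.29 and 1.60. Both were higher in replicate 2, whereas the stronger region between them was higher in replicate 1. Downstream of the TSS, replicate 2 alone listed peaks at 0.900 kb, with a value of 0.970, and at 1.04 kb, with a value of 0.660. A distal region at chr4:48003581-48003820, 41.5 kb upstream, had values of 4.04 and 2.99. Inside the gene the distal peaks were found in replicate 1 only, the strongest 21.7 kb downstream of the TSS with a value of 1.12. At the far end of the window, the promoter of Stx17, a syntaxin of autophagosomes, had values of 1.95 and 2.03.

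**Figure D3:**
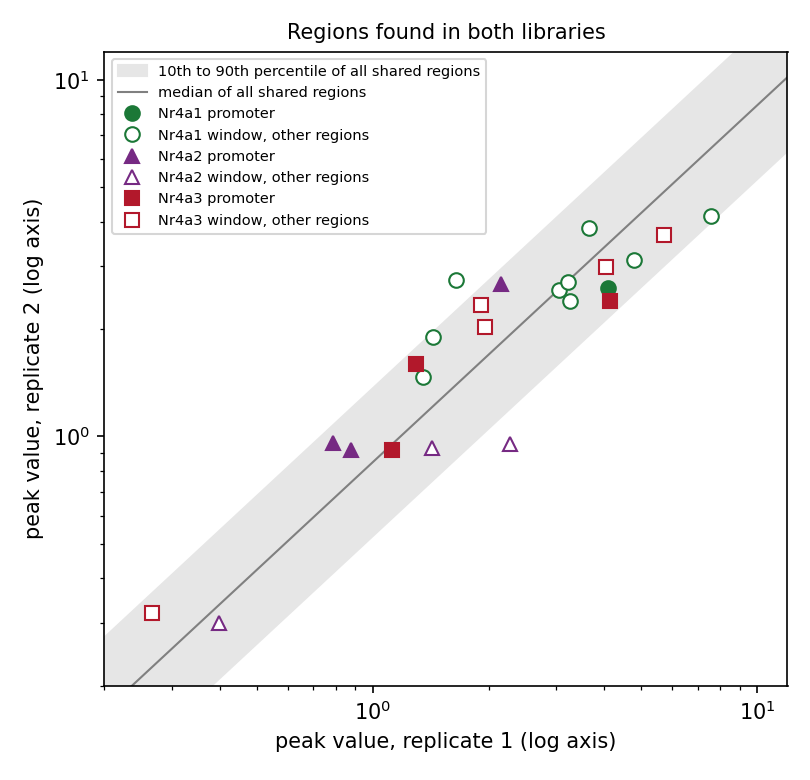
Peak value of replicate 2 against that of replicate 1 (both log axes, authors' signal scale) for the 24 regions found in both libraries, with filled symbols for regions within 1 kb of a TSS of the gene and open symbols for the others. The line is the median ratio of 58484 shared regions of the whole series and the band its 10th to 90th percentile (0.733 to 1.90); 22 of the 24 regions lie inside the band.

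Of the 24 shared regions, 13 had the higher value in replicate 1 and 11 in replicate 2, whereas over all shared regions replicate 1 was higher in 67.3%. The ratios of the members' regions ran from 0.599 to 2.39 with a median of 1.19, against a median of 1.18 over all shared regions. The most extreme ratios were those of the BB557941 intron upstream of Nr4a2 and of 1 of the Atg101 promoter peaks downstream of Nr4a1 (1.64 in replicate 1 and 2.74 in replicate 2). At the edges of the windows, the nearest peaks outside lay between 2.55 and 44.8 kb beyond the boundary, with values in replicate 1 of 0.327 to 2.30, and the outermost peaks inside had values there of 0.398 to 4.79.

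The profile of the listed FDR around each TSS showed how far the accessible stretch reached. At Nr4a1 it formed 1 peak just upstream of the TSS, and the -log10 of the lowest FDR was 20.4 in replicate 1 and 7.51 in replicate 2. At Nr4a2 the highest values were 10.8 and 15.4, at the TSS. Listed bases recurred upstream through the cluster in separate stretches with gaps between them. In replicate 2 they also ran without a break downstream of the TSS to about 740 bases. At Nr4a3 the highest values were 17.6 and 17.4, and in both libraries they lay about 1.7 kb upstream of the TSS and not at it. The replicate with the lower FDR was thus replicate 1 at Nr4a1 and replicate 2 at Nr4a2, and the libraries were close at Nr4a3.

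**Figure D4:**
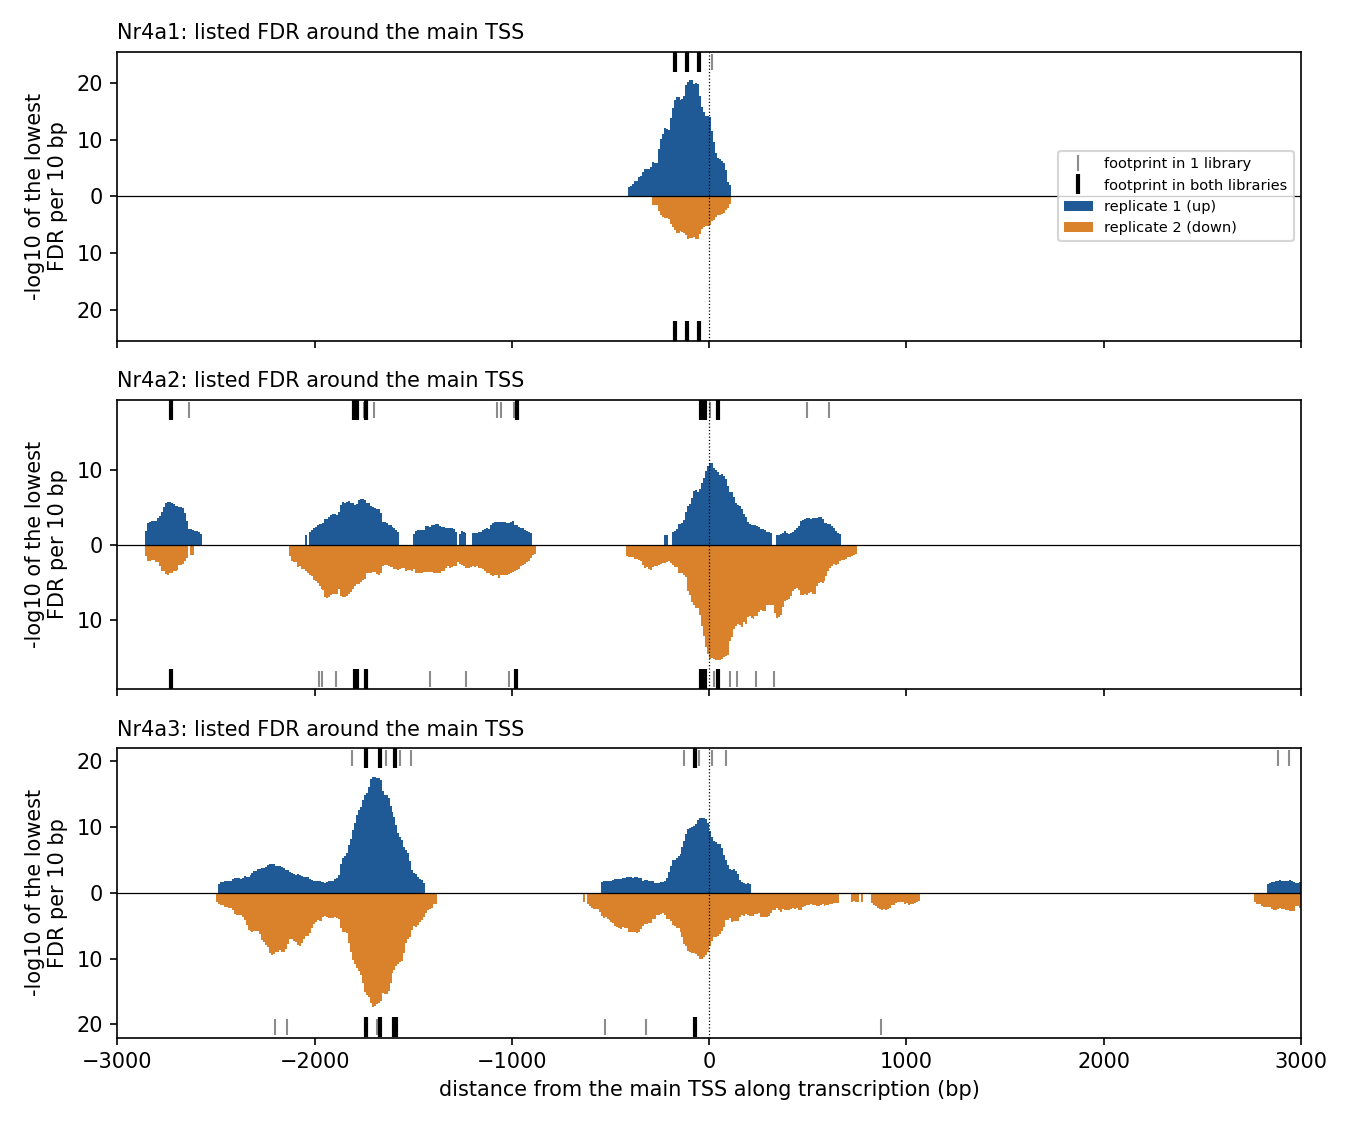
The -log10 of the lowest listed FDR in each 10 bp, replicate 1 upwards and replicate 2 downwards, against distance in bp from the main TSS along transcription, with ticks for footprints (black where found in both libraries, grey where in 1). Nr4a1 has a single accessible stretch, with maxima of 20.4 and 7.51, whereas Nr4a2 and Nr4a3 have several within 3 kb upstream, the highest at Nr4a3 (17.6 and 17.4) being upstream of the promoter.

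The windows held 106 footprints in replicate 1 and 64 in replicate 2. Of these, 30 (28.3%) and 32 (50%) overlapped a footprint of the other library, against 25.8% and 52.0% of all footprints. The share overlapping a peak of the same library was 92.5% in replicate 1 and 89.1% in replicate 2, against 93.8% and 92.6%. Of the peaks, 35 of 45 (77.8%) held a footprint in replicate 1 and 24 of 29 (82.8%) in replicate 2, against 72.9% and 69.9% of all peaks. The footprint shares were near those of the whole libraries, and the peak shares were above them, with no test made of the difference. After merging, 14 footprints were found in both libraries at Nr4a1, 8 at Nr4a2 and 8 at Nr4a3.

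In the Nr4a2 promoter, all 8 bases of the CRE lay under a footprint in replicate 1 (chr2:57115072-57115091) and 7 of the 8 in replicate 2 (chr2:57115073-57115084). In the Nr4a3 promoter, the TGACG at -79 lay wholly under footprints of both libraries. The one at -53 lay wholly under a footprint of replicate 1 and under none of replicate 2, and the one at -61 was covered for 4 bases in replicate 1 and 0 in replicate 2. The Nr4a1 promoter differed in this respect: its footprints in both libraries covered 3 GC boxes (GGGCGG, the site of Sp1 family factors) at -174, -114 and -55, while its TGACG cores at -69 and -40 lay under a footprint for 1 and 3 of their 5 bases in replicate 1 and for 0 in replicate 2, and those at -233 and -213 lay under none in either. Most of the cores in the printed windows were thus not under footprints of both libraries. Of the 9 cores in the main windows, with the CRE read as 1 on each strand, 2 were wholly covered in both. Of the 6 in the upstream windows 0 were, and 5 of them had no covered base in either library. The windows end at the TSS, and cores downstream of it were not counted. Just downstream, a footprint held TGACG at Nr4a2 in both libraries (chr2:57114988-57115001 in replicate 1 and chr2:57114984-57115001 in replicate 2). At Nr4a3 one did in replicate 1 (chr4:48045157-48045178). The GC boxes in the other printed promoter windows had no base under a footprint in either library. A GC box was held by 40.1% of all promoter windows.

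Over the windows of the 3 genes, 13 of 106 footprints of replicate 1 (12.3%) held TGACG within 5 bases of the footprint, against 2.43% of all its footprints. In replicate 2 the count was 7 of 64 (10.9%), against 2.94%. Of the footprints at coding promoters in these windows, 6 of 33 held it in replicate 1 and 4 of 28 in replicate 2. Over all coding promoters the shares were 4.82% and 4.95%. A core between 2 footprints could count under each, so these are counts of footprints and not of sites. The motifs and members were chosen with results of these data known, so no test was made of these shares. They were not matched for base composition either.

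The strongest shared distal region of each gene is shown for what lay under its footprints. The sequences are written along the plus strand of GRCm38.p6, and capitals mark the bases that lay under a footprint in replicate 1 and also in replicate 2; the Nr4a2 region had no such base. The short peak upstream of the Nr4a2 TSS is shown because replicate 2 listed no peak there and yet had footprints at 12 of the bases that were footprinted in replicate 1.
Nr4a1, 20.4 kb upstream, chr15:101246281-101246540: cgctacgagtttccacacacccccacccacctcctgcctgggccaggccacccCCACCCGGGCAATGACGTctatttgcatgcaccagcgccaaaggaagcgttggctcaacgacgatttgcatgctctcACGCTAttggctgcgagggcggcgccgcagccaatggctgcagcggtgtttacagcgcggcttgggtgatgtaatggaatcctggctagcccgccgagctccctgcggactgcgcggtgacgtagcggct
Nr4a3, 1.67 kb upstream, chr4:48043341-48043620: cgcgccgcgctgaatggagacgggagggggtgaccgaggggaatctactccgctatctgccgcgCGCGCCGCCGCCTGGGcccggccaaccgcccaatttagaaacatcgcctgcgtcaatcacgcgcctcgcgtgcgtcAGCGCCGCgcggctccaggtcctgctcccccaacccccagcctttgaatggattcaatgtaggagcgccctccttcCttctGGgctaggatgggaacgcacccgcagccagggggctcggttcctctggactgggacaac
Nr4a2, 23.8 kb upstream, chr2:57138681-57138900: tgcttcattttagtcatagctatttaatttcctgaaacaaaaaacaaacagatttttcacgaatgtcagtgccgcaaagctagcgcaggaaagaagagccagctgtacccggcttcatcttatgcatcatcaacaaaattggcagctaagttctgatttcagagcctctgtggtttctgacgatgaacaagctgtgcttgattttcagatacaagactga
Nr4a2, 1.79 kb upstream, chr2:57116801-57116860: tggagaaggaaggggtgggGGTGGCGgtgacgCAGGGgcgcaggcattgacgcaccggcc

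In the Nr4a1 distal region the longer footprint held TGACG at bases 66 to 70 of the printed sequence, wholly covered in both libraries, although the replicate 2 footprint lay outside the narrower peak of that library. In the Nr4a3 region, CGTCA at bases 137 to 141 was covered for 3 of its 5 bases in replicate 1 and for 1 in replicate 2. In the Nr4a2 region 23.8 kb upstream, TGACG at bases 178 to 182 was covered for all 5 bases in replicate 1 and for 0 in replicate 2. In the short Nr4a2 peak, TGACG at bases 28 to 32 was covered for 2 bases in each library, and these were different bases. Of the 9 shared distal regions, 4 held TGACG in their central 200 bases, against 9.82% of 37002 shared distal regions of the whole series, and 4 held a GC box, against 8.30%. The NF-Y motif CCAAT was in 5, against 24.6%, and the neuronal E-box CAGATG in 3, against 32.1%. None of the 9 held AP-1, which 10.4% of all held, NBRE (0.422%) or a CTCF core (7.91%). These shares were not matched for base composition. The regions 20.4 kb upstream of Nr4a1 and 1.67 and 2.21 kb upstream of Nr4a3 held both TGACG and a GC box. Their observed over expected CpG ratios were 0.873, 0.956 and 0.778. The other region with TGACG, 23.8 kb upstream of Nr4a2, had a ratio of 0.556. The other with a GC box, 41.5 kb upstream of Nr4a3, had 0.167. A CTCF core was found in the region near Gm49499, 49.1 kb downstream of Nr4a1, which had values of 4.79 and 3.13, and there it lay under a footprint in both libraries.

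Genes that act with the receptors were mostly accessible. The retinoid X receptor genes Rxra, Rxrb and Rxrg, which encode the heterodimer partners, had promoter peaks in both libraries in 3 of 3 cases. Rxrb had values of 7.73 and 6.02, whereas Rxra had 0.681 and 0.733 and Rxrg 0.716 and 0.815. Of the activators of Nr4a transcription, 14 of 14 had promoter peaks in both libraries, among them Creb1, the CRE-binding factor, at 8.37 and 5.65, and Srf, the SRE-binding factor, at 10.3 and 5.004. Srf and Creb1 had the highest means of the 14, and Camk4 had the lowest, with values of 0.672 and 0.980. Of the coregulators, 7 of 7 had promoter peaks in both libraries, among them Hdac3, the deacetylase of the nuclear receptor corepressor complex, at 4.93 and 3.75. These counts stand beside the 59.0% of all protein-coding genes. Of 6 genes that Nr4a2 is known to control or act with in midbrain dopamine neurons, 1 had a promoter peak in both libraries, the receptor gene Ret, at 0.389 and 0.588. Ddc and Pitx3 had a peak in replicate 1 only, and Th, Slc6a3 and Slc18a2, for dopamine synthesis, reuptake and vesicular loading, had none in either library.

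Promoter peaks at cell type markers were checked against the tissue label. In both libraries they were found for 5 of 5 markers of excitatory forebrain neurons, 5 of 5 of dentate granule cells, 2 of 4 of CA1 and 3 of 4 of CA3 and CA2. Most of these markers of excitatory neurons thus had a peak, beside 59.0% of all protein-coding genes. Some of the peaks were weak, such as that of the dentate marker Dsp, at 0.354 and 0.722. Promoter peaks in both libraries were found for 2 of 6 interneuron, 2 of 5 astrocyte, 3 of 6 oligodendrocyte, 0 of 5 microglial and 0 of 4 endothelial markers. In replicate 1 alone, 4 of the 5 microglial and 2 of the 4 endothelial markers had a peak, and none did in replicate 2. Markers of other cell types also had a peak in replicate 1 only. They were Fibcd1 and Spink8 (CA1), Sst (interneurons), Aqp4 and Aldh1l1 (astrocytes), and Mog and Mag (oligodendrocytes). No marker had a peak in replicate 2 only, and replicate 1 had the longer peak list. Whether cell types had a part in the members' regions found only in replicate 1 was not tested.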

How the data were processed

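The 2 libraries were processed as deposited. For each library the authors deposited 2 peak lists, footprints and bases with an FDR, on mm10 (GRCm38), per the labels, and did not pool the libraries. The aligner, the callers and how CAST/EiJ alleles were treated: not given in the sources used here. Peak values are the authors' deposited signal. Within a library the distinct values below 1 proved to be whole multiples of a single step (100% of tested values within 0.05 steps). These were 106 values in replicate 1 and 89 in replicate 2, and higher values were not tested. All values were taken to lie on a scale of their library. Read depth is unknown, and no interval was computed. The base lists deposited by the authors hold an FDR, read here as a q-value, for bases under 0.05 only, and -log10 of it was computed here. The footprint lists carry 0.01 on every line.

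The longer peak list was used. Genes and start sites were those of GENCODE M21 and sequences those of RefSeq GRCm38.p6. A promoter value was the highest peak value within 1 kb of any coding TSS of the gene, so neighbours with a common promoter have the same value. Regions and footprints were shared at an overlap of at least 1 bp. Motifs were searched on both strands in 250 bases upstream of each TSS, in 200 bases at the middle of distal regions and in footprints with 5 bases on each side. Promoter sequences were taken upstream of the TSS in place of 300 bases around the peak, so that no transcribed sequence is shown. The named items were every promoter peak, the 5 strongest shared distal regions or fewer per gene, the strongest distal peak of 1 library and the 3 genes nearest in promoter value; the CTCF core near Gm49499 and single list genes were named after their values were seen. The members and lists were chosen with earlier results of these data known. With 1 group of 2 libraries no test was made. Procedures were tested on simulated data. Python 3.11.15, NumPy 2.4.6, pandas 2.3.3, pysam 0.24.0 and matplotlib 3.10.9 were used. Alternatives were promoter windows of 500 bp and 2.5 kb, all transcripts, scaling of replicate 2, flanks of 10 and 100 kb, a reciprocal overlap of 50%, the shorter lists, equal peak numbers, footprints inside peaks only and each replicate left out.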

Additional observations from a re-analysis of the deposited data

How the results depend on the processing

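All 3 promoters had a peak in both libraries under every window and peak list tried. Of 70 values under alternatives, 21 were counted as moved and 49 were not. The 49 still include changes: Nr4a2 had 4 shared regions with the 10 kb flank and 4 in the shorter lists, against 6. The Nr4a3 promoter value was 4.69 with a window of 2.5 kb, which takes in the region 1.67 kb upstream. Several counts of shared regions and footprints moved with the flank. With 10 kb they were 4 and 5 at Nr4a1 and 5 and 4 at Nr4a3. With 100 kb they were 16 and 24 at Nr4a1 and 10 and 13 at Nr4a2. The shared footprints were 8 at Nr4a2 with 10 kb and 8 at Nr4a3 with 100 kb, as with 50 kb. Nr4a3 kept 5 shared regions in the shorter lists and 5 shared footprints at a reciprocal overlap of 50%, and Nr4a2 had 5 shared footprints lying inside a peak; the cause was not tested. Without 1 replicate, counts are those of the other library alone: regions 10 to 21 at Nr4a1, 9 to 10 at Nr4a2 and 10 to 14 at Nr4a3, and footprints 23 to 56, 24 to 25 and 16 to 26. Promoter values were then 2.60 to 4.10, 2.16 to 2.67 and 2.40 to 4.14. No paired analysis was possible because the labels give 1 group only. Depth is unknown, so a region listed in 1 library only was not detected in the other, which does not show that it was closed there.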
